A study of Mus musculus with 10 samples.

Results

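The genes described here are 10 members of the immediate early response group (Egr1, Klf2, Klf6, Nr4a1, Ier2, Ier3, Ier5, Btg2, Zfp36 and Zfp36l1), measured by RNA-seq in ASZ001, a cell line from a murine basal cell carcinoma (BCC). They were taken by gene symbol from both deposited tables of RPKM, that is, reads scaled by transcript length and by library size. Each of the 10 had a row in the SB431542 table, which held 17658 genes by name, and in the T-5224 table, which held 16719. In the first experiment, 3 libraries from cells given 10 µM SB431542, an inhibitor of the TGFß type I receptor ALK5, stood beside 3 libraries from cells given the solvent DMSO. In the second, 2 libraries from cells given 20 µM T-5224, an inhibitor of AP-1, stood beside 2 DMSO libraries of their own. All cells, DMSO controls included, were kept in low serum for 24 h, and no engineered allele is given for any group. The time given for every library, treated or DMSO, is 24 h, and the paper states 24 h of treatment for T-5224. The values are levels at that time, and no earlier time was measured. Every library comes from the same cell line. The study's methods call its replicates biological, and the p-values measure the spread between samples of a single line. The experiments share no libraries and their tables were normalized separately, so each inhibitor was compared only with its own DMSO libraries. The comparisons ask how transcripts of these BCC cells differ after TGFß receptor or AP-1 inhibition.

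Immediate early genes are switched on by serum, growth factors or stress without any need for new protein, through factors such as SRF that already sit in the cell. Many encode transcription factors or regulators that end the response, and many of their transcripts carry AU-rich elements and decay quickly. AP-1 itself is built from proteins of the Fos and Jun families, and several genes of these families are immediate early genes. In epidermis, genes of this group respond to growth factors, wounding and stress.

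The stretch just before each transcription start is shown for 4 members that differ in how they responded to the inhibitors, so that matches to sites of AP-1 and of other factors of the immediate early response can be read beside the values. RefSeq promoters (GRCm38.p6) matched 8 of the 10 members by symbol. Egr1 and Ier2 had no entry. The 250 bases before the start are printed on the strand of the gene in lower case, with capitals for a match on either strand to AP-1 (TGANTCA), the cyclic AMP response element CRE (TGACGTCA), the CArG box of SRF, the EGR site (GCGNGGGCG) or TATAAA. None of the capital stretches overlap each other. Zfp36l1 is at chr12:80113014-80113263 on the minus strand, Btg2 at chr1:134079156-134079405 on the minus strand, Zfp36 at chr7:28379229-28379478 on the minus strand and Ier3 at chr17:35821463-35821712 on the plus strand.
Zfp36l1: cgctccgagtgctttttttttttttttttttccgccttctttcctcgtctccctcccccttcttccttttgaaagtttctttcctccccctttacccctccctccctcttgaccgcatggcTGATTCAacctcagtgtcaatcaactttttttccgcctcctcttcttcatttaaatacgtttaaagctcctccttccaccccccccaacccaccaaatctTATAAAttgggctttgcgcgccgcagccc
Btg2: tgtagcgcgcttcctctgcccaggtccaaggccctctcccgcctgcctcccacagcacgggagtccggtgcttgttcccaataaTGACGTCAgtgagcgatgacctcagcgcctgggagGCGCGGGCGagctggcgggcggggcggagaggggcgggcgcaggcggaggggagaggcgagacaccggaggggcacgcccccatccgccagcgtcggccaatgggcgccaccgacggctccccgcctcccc
Zfp36: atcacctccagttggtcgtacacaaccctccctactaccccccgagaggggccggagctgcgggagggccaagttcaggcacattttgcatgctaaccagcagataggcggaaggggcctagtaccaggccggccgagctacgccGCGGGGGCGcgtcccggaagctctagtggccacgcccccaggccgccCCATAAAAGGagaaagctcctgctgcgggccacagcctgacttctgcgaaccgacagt
Ier3: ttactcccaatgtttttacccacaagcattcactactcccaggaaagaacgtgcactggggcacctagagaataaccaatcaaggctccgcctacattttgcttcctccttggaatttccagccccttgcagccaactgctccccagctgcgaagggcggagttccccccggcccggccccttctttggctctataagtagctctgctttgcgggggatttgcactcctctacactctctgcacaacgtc

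Zfp36l1 was the member with a match to the AP-1 letters searched, TGANTCA. It held TGATTCA at 129 to 123 bases before the start, together with TATAAA at 29 to 24 bases. The consensus given in the paper is narrower, TGA(C/G)TCA, and leaves out TGATTCA. By that consensus no member with a promoter entry held an AP-1 match in this window. Btg2 held the CRE TGACGTCA at 166 to 159 bases and an EGR match at 131 to 123 bases. Zfp36 held a CArG box, CCATAAAAGG, at 58 to 49 bases and an EGR match at 105 to 97 bases. Of the members not printed, Klf2 held an EGR match at 199 to 191 bases and Nr4a1 held CGCCCCCGC, an EGR match on the other strand, at 60 to 52 bases. Ier3, Ier5 and Klf6 held none of these letters in this window. Over 32851 RefSeq promoters of the same length, 6.75% held the AP-1 letters TGANTCA, and the share with the narrower consensus was not worked out. The CRE was held by 1.55%, a CArG box by 1.47%, the EGR site by 4.70% and TATAAA by 12.4%. The matches describe letters and were not tested as sites.

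Library depth, worked out from the steps in RPKM of short genes, ran from 32.01 to 51.5 M reads. Pmepa1, a TGFß target taken as a check of SB431542, was lower by 3.62 on the log2 scale with SB431542 and by 1.35 with T-5224, and the Hedgehog target Gli1 was lower with both (limma, adjusted p at most 0.00977). No AP-1 target was set as a check of T-5224. The basal keratins Krt5 and Krt14 stood at 4076 RPKM or more on average in DMSO, and collagen genes of fibroblasts, Ptprc, Cdh5 and Dct were near 0 or not listed. The summed RPKM of 10 basal keratinocyte and BCC markers was 9391 to 9569 in DMSO and 6634 to 7095 with SB431542, and 11998 to 12658 in DMSO and 1697 to 1754 with T-5224. Most of each sum was Krt5 and Krt14. With SB431542 Krt15 was higher (0.49, limma adjusted p = 0.0291), and Trp63, Itga6, Itgb4, Cdh1, Gli2 and Ptch1 did not pass. With T-5224 Ptch1 was higher (0.34, limma adjusted p = 0.0126) and the rest of the 10 markers were lower. Beside them, summed fibroblast markers stayed at or under 4.14 RPKM, summed immune markers went from 16.7 to 18.6 in DMSO to 32.7 to 33.2 RPKM with T-5224 and summed endothelial markers from 10.9 to 11.97 down to 4.13 to 4.67 RPKM, nearly all of it Cd68 and Pecam1. With SB431542 the endothelial sum went from 5.30 to 6.74 in DMSO to 2.74 to 2.99 RPKM (Pecam1, limma adjusted p = 0.00103) and the fibroblast sum from 2.45 to 2.64 in DMSO to 3.70 to 4.14 RPKM (Dcn, limma adjusted p = 0.00178). The part of these shifts in the results on the members was not tested. In bulk RNA, fewer cells of a kind and less RNA per cell cannot be told apart. DMSO replicate 1 of the SB431542 experiment stood apart from its group, with an SD over genes of 0.272 (log2) from the mean of the other two libraries, against 0.123 to 0.190 for the rest of that table, so counts with SB431542, and values of members whose call or sign changes, are also given without it.

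In cells given DMSO alone, the members covered a wide range of levels. Ier3, which codes for a small protein that modulates cell death and NF-kB and ERK signaling, led both tables, at 65.0 ± 3.74 RPKM (SD, n = 3) in the SB431542 experiment and 61.7 ± 5.92 (SD, n = 2) in the T-5224 experiment. Klf6, a zinc finger factor of the Krüppel-like family, was at 61.0 ± 2.26 and 42.1 ± 3.86 RPKM. Zfp36l1, an RNA-binding protein that promotes decay of AU-rich transcripts, was at 56.8 ± 9.91 and 49.95 ± 2.45 RPKM. The ranges of these 3 genes overlapped in the SB431542 table, where Ier3 and Klf6 could not be ordered, nor Klf6 and Zfp36l1. In the T-5224 table no pair of neighbours among them overlapped.

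Below them, the order of the middle genes depended on the table. In the SB431542 experiment Ier2 was at 28.6 ± 4.48 RPKM in DMSO, Egr1 at 15.5 ± 3.12, Ier5 at 14.2 ± 2.84, Zfp36 at 10.2 ± 0.935 and Btg2 at 8.49 ± 1.60 RPKM, and each neighbour from Egr1 down to Btg2 overlapped the next. In the T-5224 experiment Ier5 was at 20.9 ± 1.17 RPKM, Ier2 at 13.8 ± 0.993, Zfp36 at 12.5 ± 0.0488, Btg2 at 12.3 ± 0.249 and Egr1 at 6.90 ± 0.164 RPKM, and only Zfp36 and Btg2 overlapped. The orphan nuclear receptor Nr4a1 and the Krüppel-like factor Klf2 were lowest in both, Nr4a1 at 3.71 ± 0.225 and 0.810 ± 0.0976 RPKM and Klf2 at 1.05 ± 0.189 and 1.56 ± 0.0856 RPKM, so their order differed between tables.

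**Figure D1:**
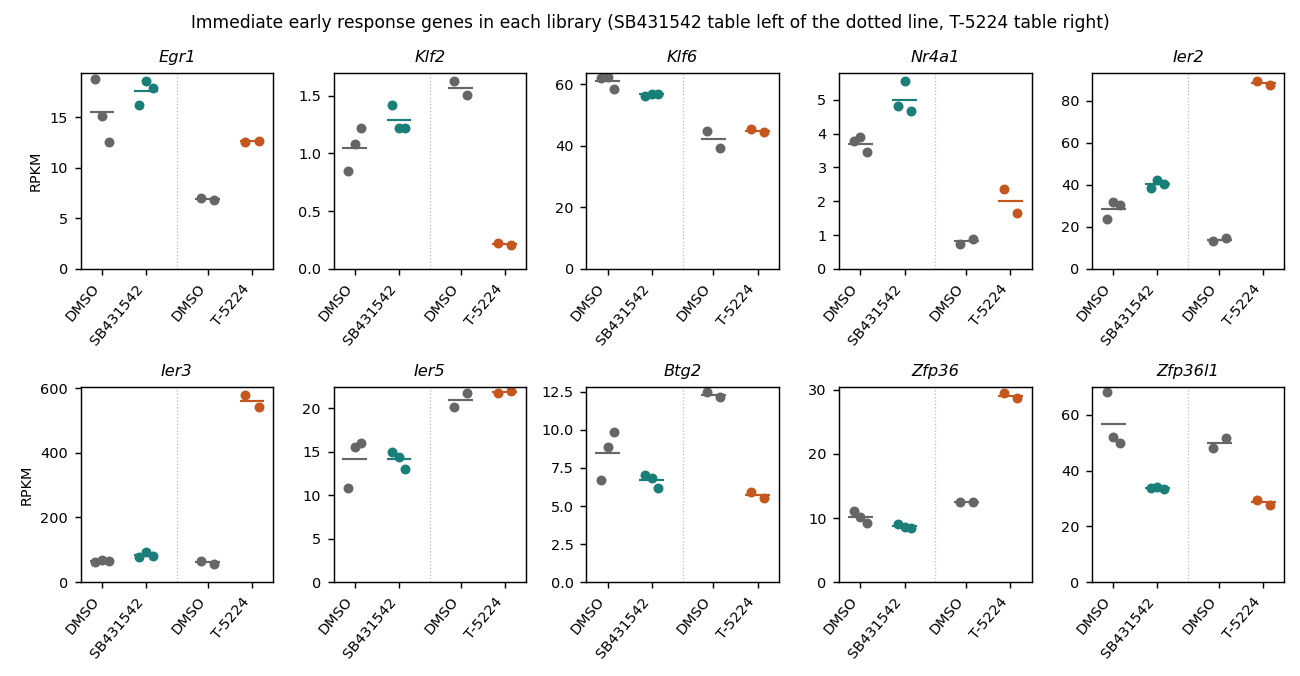
RPKM (linear axis from 0, a scale of its own for each gene) of the 10 members in each library. Points are libraries, horizontal lines are group means, and a dotted line parts the SB431542 table from the T-5224 table, which were normalized separately. Ier3 and Ier2 stand far above their DMSO libraries with T-5224 (540.4 to 579 and 87.4 to 89.3 RPKM), and Zfp36l1 is lower with both inhibitors.

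ALK5 inhibition with SB431542 moved the members little. Of the 10 members, all tested, 3 (Ier2, Ier3 and Nr4a1) were higher and 1 (Zfp36l1) was lower at an adjusted p under 0.05 (limma, Benjamini-Hochberg over 10842 genes tested), and none passed a 2-fold change as well, also at an unadjusted p. Among all genes tested, 10.2% were higher and 10.0% lower by the same rule, and 0.231% were up and 0.581% down past 2-fold. At an unadjusted p under 0.05, 6 members passed. Without DMSO replicate 1, 4 members were higher and 2 lower. The median log2 fold change of the members was 0.10, against 0.008 for all genes tested. In 3 members all SB431542 libraries lay above all DMSO libraries and in 3 all lay below, where 23.9% and 21.3% of all genes did so.

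Among the transcription factors, Egr1 (mm9 chromosome 18, 35020861 to 35024638), a zinc finger factor induced by serum, was at 18.8, 15.1 and 12.5 RPKM in DMSO and at 16.2, 18.6 and 17.8 RPKM with SB431542. The groups overlapped, and the log2 fold change was 0.19 (SE 0.13, limma adjusted p = 0.343). Without DMSO replicate 1, the highest of the DMSO libraries, Egr1 was higher by 0.33 (limma adjusted p = 0.0149). Klf2 (chromosome 8, 74842932 to 74845555) was at 0.845, 1.08 and 1.22 RPKM in DMSO and at 1.42, 1.22 and 1.22 RPKM with SB431542, again with overlap (0.21, SE 0.12, limma adjusted p = 0.240). Klf6 (chromosome 13, 5860735 to 5869639) was at 62.2, 62.5 and 58.4 RPKM in DMSO and at 56.2, 57.0 and 57.0 RPKM with SB431542. All treated libraries of Klf6 lay below all DMSO libraries, but the difference was small, −0.10 on the log2 scale (SE 0.05, limma adjusted p = 0.175).

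Nr4a1 (chromosome 15, 101097277 to 101105223) was at 3.78, 3.89 and 3.46 RPKM in DMSO and at 4.83, 5.55 and 4.66 RPKM with SB431542. The groups did not overlap, and Nr4a1 was higher by 0.39 (SE 0.09, limma adjusted p = 0.0205).

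The Ier genes split. Ier2 (chromosome 8, 87185230 to 87186751), which codes for a nuclear protein, was at 23.5, 31.98 and 30.4 RPKM in DMSO and at 38.7, 42.5 and 40.4 RPKM with SB431542. Ier3 (chromosome 17, 35958629 to 35959868) was at 61.3, 68.8 and 64.9 RPKM in DMSO and at 79.2, 93.3 and 82.1 RPKM with SB431542. In both genes every treated library was above every DMSO library, by 0.51 for Ier2 (SE 0.11, limma adjusted p = 0.0206) and by 0.38 for Ier3 (SE 0.08, limma adjusted p = 0.0153). Ier5 (chromosome 1, 156943497 to 156946766), a relative of Ier2, was at 10.9, 15.6 and 16.0 RPKM in DMSO and at 15.03, 14.4 and 13.1 RPKM with SB431542. Here the groups overlapped (log2 fold change 0.02, SE 0.14, limma adjusted p = 0.945), and without DMSO replicate 1, the lowest library, the value was −0.16 (limma adjusted p = 0.0810).

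Of Btg2, Zfp36 and Zfp36l1, which restrain growth or shorten the life of transcripts, Zfp36l1 passed the test. Btg2 (chromosome 1, 135971747 to 135975697), a p53 target that slows the cell cycle and binds the deadenylase complex, was at 6.74, 8.88 and 9.86 RPKM in DMSO and at 7.04, 6.85 and 6.19 RPKM with SB431542. The groups overlapped through DMSO replicate 1 (−0.31, SE 0.13, limma adjusted p = 0.134), and without it Btg2 was lower by 0.46 (limma adjusted p = 0.00203). Zfp36 (chromosome 7, 29161803 to 29164274), which codes for tristetraprolin, a protein that binds AU-rich elements, was at 11.2, 10.2 and 9.29 RPKM in DMSO and at 9.13, 8.57 and 8.39 RPKM with SB431542. Its treated libraries all lay below its DMSO libraries, and the change of −0.22 did not pass (SE 0.08, limma adjusted p = 0.0893).

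Zfp36l1 (chromosome 12, 81208747 to 81214000) was at 68.2, 52.1 and 50.1 RPKM in DMSO and at 33.9, 34.3 and 33.3 RPKM with SB431542. The treated libraries lay close together and well below the DMSO libraries, at 59.6% of the DMSO mean. Zfp36l1 fell by 0.73 (SE 0.11, limma adjusted p = 0.00575), the change with the lowest adjusted p among the members in this experiment.

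The 4 calls differed in how far they rested on single libraries. Zfp36l1 passed in all 6 fits that left out 1 library each, Ier3 in 4, Ier2 in 3 and Nr4a1 in 2 of the 6. Leaving out SB431542 replicate 2 or replicate 3 ended all 3 higher calls, with limma adjusted p-values between 0.0526 and 0.0865, and leaving out SB431542 replicate 1 ended those of Ier2 (0.0619) and Nr4a1 (0.0647). Without DMSO replicate 3 Nr4a1 missed the threshold (limma adjusted p = 0.0527). The directions of these 4 genes were the same in each of these fits. Without DMSO replicate 1 all 4 calls held, at 0.37 for Ier2, 0.34 for Ier3, 0.40 for Nr4a1 and −0.59 for Zfp36l1 (limma adjusted p at most 0.00896).

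**Figure D2:**
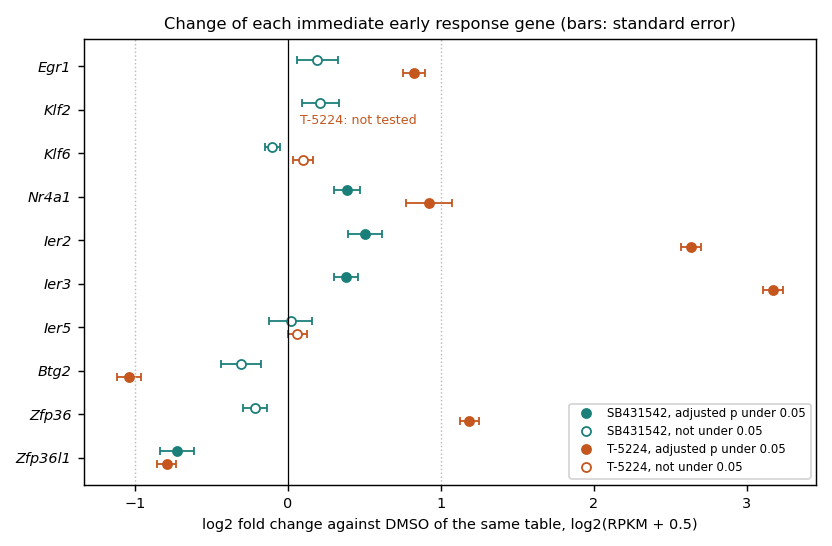
Log2 fold change of each member against the DMSO libraries of the same table, on the log2(RPKM + 0.5) scale, with bars for the standard error. Filled points have an adjusted p under 0.05 (limma), open points do not, and dotted lines mark a 2-fold change. Zfp36l1 lies to the left for both inhibitors, Ier2 and Ier3 reach 2.64 and 3.17 with T-5224, and Klf2 was not tested with T-5224.

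AP-1 inhibition with T-5224 gave larger changes. Of the 9 members tested, 5 were higher (Ier3, Ier2, Zfp36, Nr4a1 and Egr1) and 2 were lower (Btg2 and Zfp36l1) at an adjusted p under 0.05 (limma, 10809 genes tested), while Klf6 and Ier5 did not pass. Past 2-fold, 3 were up (Ier3, Ier2 and Zfp36) and 1 was down (Btg2). This treatment moved a large share of all genes: 40.3% were higher and 39.4% lower by the same rule, and 10.4% were up and 10.6% down past 2-fold. The median log2 fold change was 0.82 over the 9 members and 0.003 over all genes tested. The member median depends on the minimum of 1 RPKM. It leaves out Klf2, at 13.8% of its DMSO mean, and takes in Nr4a1, which reached the minimum only through the T-5224 libraries. In 5 tested members both T-5224 libraries lay above both DMSO libraries and in 2 below, where 45.1% and 44.5% of all genes did so.

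Ier3 had the largest change of the members. It was at 65.9 and 57.6 RPKM in DMSO and at 579 and 540.4 RPKM with T-5224, a ratio of means of 9.06 and a rise of 3.17 on the log2 scale (SE 0.07, limma adjusted p = 8.48e-12). Ier2 was at 13.1 and 14.5 RPKM in DMSO and at 89.3 and 87.4 RPKM with T-5224, a ratio of 6.398 and a rise of 2.64 (SE 0.06, limma adjusted p = 1.90e-11). In both genes the treated libraries lay far from the DMSO libraries and near each other. Ier5, in contrast, was at 20.1 and 21.8 RPKM in DMSO and at 21.7 and 22.0 RPKM with T-5224. Its groups overlapped, with a log2 fold change of 0.06 (SE 0.06, limma adjusted p = 0.398).

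Of the transcription factors, Egr1 was at 7.02 and 6.78 RPKM in DMSO and at 12.6 RPKM in both T-5224 libraries. The replicates were nearly equal in each group, and Egr1 rose by 0.82 (SE 0.07, limma adjusted p = 8.08e-07). In the annotation the model Gm17507 overlaps Egr1 on the other strand, as Gm17591 does Zfp36l1, and whether reads were counted by strand is not given in the sources used here. Nr4a1 was low throughout, at 0.741 and 0.879 RPKM in DMSO and at 2.35 and 1.66 RPKM with T-5224. It rose by 0.92 (SE 0.15, limma adjusted p = 1.65e-04), though it was above the minimum mean of 1 RPKM for a test only through the T-5224 libraries. With a pseudocount of 0.1 in place of 0.5, the change of Nr4a1 was 1.19 and so past 2-fold.

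Klf6 was at 44.8 and 39.4 RPKM in DMSO and at 45.4 and 44.6 RPKM with T-5224, with overlapping groups (0.10, SE 0.07, limma adjusted p = 0.201). Without the lone higher DMSO library, DMSO column 1, the value of Klf6 was 0.19, which rests on 1 DMSO library with no spread of its own. Klf2 had lower values with T-5224. It was at 1.63 and 1.504 RPKM in DMSO and at 0.223 and 0.210 RPKM with T-5224, which is 13.8% of the DMSO mean, and about 21.2 and 19.1 reads stood behind the treated values. Both treated libraries of Klf2 lay below both DMSO libraries, but its mean over the table, 0.891 RPKM, was under the minimum, and Klf2 was not tested in the main comparison. With no filter on low values its log2 fold change was −1.53 (SE 0.09, limma adjusted p = 2.14e-04).

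Among the members that slow growth or bind RNA, the directions were opposed. Btg2 was at 12.5 and 12.2 RPKM in DMSO and at 5.95 and 5.53 RPKM with T-5224, 46.6% of the DMSO mean. Btg2 fell by 1.04 (SE 0.08, limma adjusted p = 1.89e-07) and so lay just past 2-fold, where a pseudocount of 1 gave −0.98 and leaving out each library in turn gave −1.09 to −0.99. Zfp36 was at 12.5 RPKM in both DMSO libraries and at 29.4 and 28.7 RPKM with T-5224. Zfp36 rose by 1.19 (SE 0.06, limma adjusted p = 9.54e-09).

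Its relative Zfp36l1 was at 48.2 and 51.7 RPKM in DMSO and at 29.7 and 27.6 RPKM with T-5224, 57.3% of the DMSO mean. Zfp36l1 fell by 0.79 (SE 0.06, limma adjusted p = 3.14e-07). The pair of RNA-binding genes thus stood at 12.5 and 49.95 RPKM on average in DMSO and at 29.1 and 28.6 RPKM with T-5224, close to equal per length. The directions of all 7 calls with T-5224 were the same in each of the 4 fits that left out 1 library. In such a fit the lone library of a group is assumed to vary like the libraries of the other group. Passing the test there is thus not read as support.

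Set side by side, Ier2 and Ier3 were higher and Zfp36l1 was lower with both inhibitors. Nr4a1 was also higher with both, but with T-5224 it could be tested only through the libraries where it is high. The log2 fold changes were 0.51 with SB431542 and 2.64 with T-5224 for Ier2, 0.38 and 3.17 for Ier3, 0.39 and 0.92 for Nr4a1, and −0.73 and −0.79 for Zfp36l1. Egr1, Btg2 and Zfp36 passed with T-5224 and not with SB431542, and Klf6 and Ier5 passed with neither. Doses differ and the tables were normalized separately, so the difference between the inhibitors was not tested.

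Family relatives of the members were a list of 25 genes. With SB431542, 4 of 20 tested were higher, 3 were lower and none passed 2-fold, where 10.2% and 10.0% of all genes were higher and lower, and the median log2 fold change was −0.05. Zfp36l2, the third RNA-binding gene of the Zfp36 family, rose from 53.3 ± 1.32 to 82.4 ± 1.59 RPKM (SD, n = 3; 0.62, limma adjusted p = 3.28e-04). Klf15 (0.57, limma adjusted p = 0.0475, under 1 RPKM in DMSO, and not past the test with a pseudocount of 0.1, no filter or quantile normalization or without DMSO replicate 2) and Ier5l (0.43, limma adjusted p = 0.0133), a relative of Ier5, were also higher. Klf15 could be tested only through the SB431542 libraries, and the count of 4 higher includes it. Klf10, a TGFß-induced Krüppel-like factor, fell from 26.8 ± 0.984 to 14.3 ± 0.712 RPKM (−0.88, limma adjusted p = 2.19e-04), followed by Klf11 (−0.63) and Klf9 (−0.35). Without DMSO replicate 1, 7 relatives were higher and 6 lower, and the higher count was 1 without SB431542 replicate 1 or 2 and 2 without SB431542 replicate 3.

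With T-5224, 8 of 21 relatives tested were higher and 8 lower, where 40.3% and 39.4% of all genes were, with 1 up and 1 down past 2-fold and a median of 0.02. Btg3, of the same antiproliferative family as Btg2, rose from 15.9 ± 0.332 to 40.5 ± 0.0262 RPKM (SD, n = 2; 1.32, limma adjusted p = 2.54e-09), while Btg2 fell. Nr4a3 (0.81) and Klf16 (0.79) were higher. Nr4a3, under 1 RPKM in DMSO, could be tested only through the T-5224 libraries, and the count of 8 higher includes it. Ier5l fell from 37.0 ± 0.907 to 11.98 ± 0.307 RPKM (−1.59, limma adjusted p = 8.58e-10), and Klf12 (−0.81) and Klf5 (−0.77) were lower. Zfp36l2 was higher with T-5224 too, from 19.1 ± 0.0170 to 24.0 ± 0.285 RPKM (0.32, limma adjusted p = 3.89e-04), so that Zfp36l2 was higher and Zfp36l1 lower with both inhibitors. The other Egr genes were near 0. Egr3 and Egr4 were at most at 0.076 RPKM in any group mean of either table, and in the SB431542 table Egr2 had a DMSO mean of 0.0187 RPKM.

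A wider list of 51 other immediate early genes showed how the members compare with their class. With SB431542, 7 of 45 tested were higher and 10 lower, where 10.2% and 10.0% of all genes were, with 2 up and 1 down past 2-fold and a median of −0.05. Dusp6, an ERK phosphatase, rose from 20.0 ± 1.01 to 42.4 ± 3.67 RPKM (SD, n = 3; 1.06, limma adjusted p = 2.69e-04), and Dusp4 (1.04), of the same family and under 1 RPKM in DMSO, and Plaur (0.95), the urokinase receptor, were higher. Dusp4 could be tested only through the SB431542 libraries, and the higher and up counts and the median include it. Ctgf, a secreted matrix protein, fell from 21.6 ± 0.492 to 3.96 ± 0.490 RPKM (−2.31, limma adjusted p = 2.50e-05), and Bhlhe40 (−0.94) and Klf10 (−0.88) were lower. The higher count fell to 3 without SB431542 replicate 2 or replicate 3 and to 4 without DMSO replicate 2, while without DMSO replicate 1 the list had 8 higher and 14 lower. The higher count was 3 at a minimum of 5 RPKM.

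With T-5224, 30 of 46 tested were higher and 11 lower, with 22 up and 5 down past 2-fold and a median of 0.81. Of all genes tested, 40.3% were higher, 39.4% lower, 10.4% up and 10.6% down. Of the 30, 7 had a DMSO mean under 1 RPKM, Fosl1 among them, and so could be tested only through the T-5224 libraries. The counts and the median include these 7. Fosl1, an AP-1 subunit, went from 0.227 ± 0.0361 to 27.1 ± 0.583 RPKM (SD, n = 2; 5.25), and the stress factor Atf3 from 2.25 ± 0.0163 to 101 ± 0.623 RPKM (5.205). Ptgs2, which codes for cyclooxygenase 2, went from 5.56 ± 0.296 to 208 ± 4.98 RPKM (5.11, limma adjusted p at most 2.69e-12 for these 3). Ctgf (−2.26), the kinase gene Sik1 (−1.61) and the survival gene Mcl1 (−1.24) fell. The changes of Ier3 and Ier2 lie within this range, and those of Ier5 and Klf6 lie beside Dusp1 (0.04), Jund (0.03) and Klf4 (0.02), which did not pass.

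**Figure D3:**
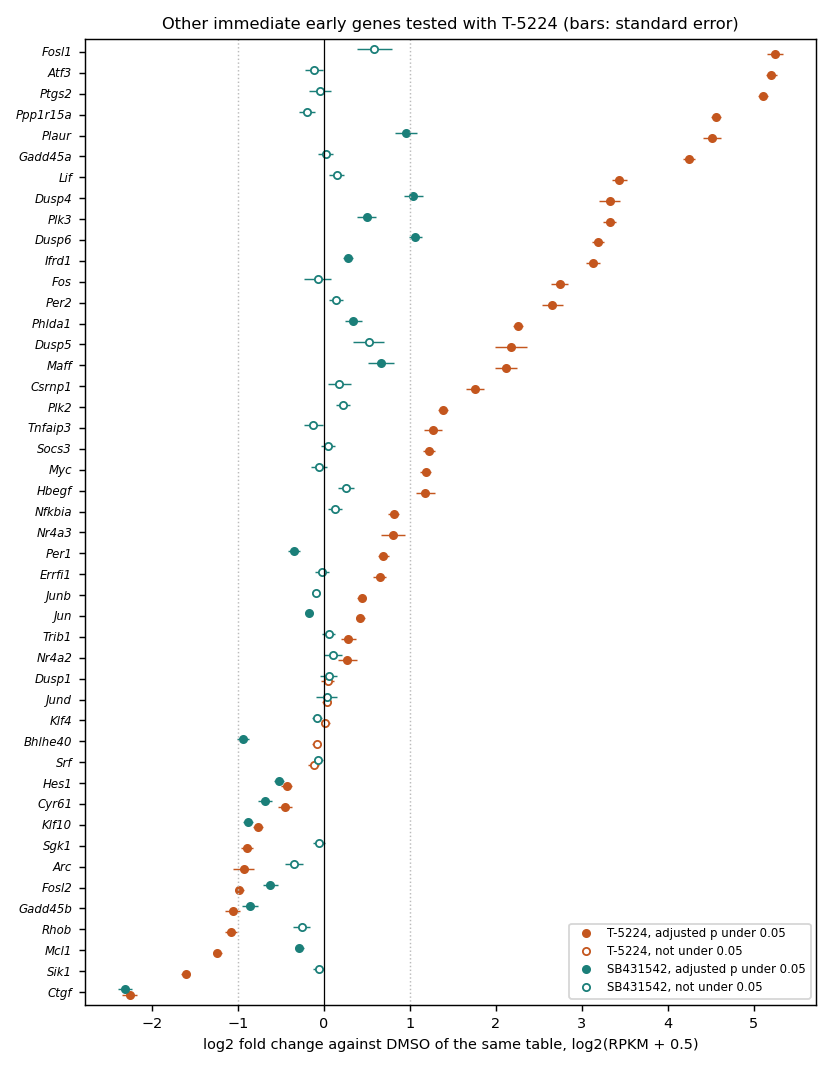
Log2 fold change, on the log2(RPKM + 0.5) scale, of the 46 other immediate early genes tested with T-5224, with the value under SB431542 beside it where the gene was tested there. Bars are standard errors, filled points have an adjusted p under 0.05 (limma), and dotted lines mark 2-fold. The T-5224 points run from −2.26 for Ctgf to 5.25 for Fosl1, with 22 to the right of the 2-fold line.

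SRF and its cofactors, which drive many immediate early promoters, were a list of 7 genes with 6 tested. With SB431542, Mkl1, the gene of the cofactor MRTF-A, was lower, from 31.6 ± 1.21 to 26.4 ± 0.425 RPKM (SD, n = 3; −0.25, limma adjusted p = 0.0159), and no gene was higher, also at an unadjusted p under 0.05. That call did not hold without any 1 of the SB431542 libraries (limma adjusted p between 0.0644 and 0.0748). Of all genes tested, 10.0% were lower with SB431542. With T-5224, 4 of 6 were lower and none higher, the same counts as at an unadjusted p and beside 39.4% of all genes lower, with Mkl2 moving from 9.57 ± 0.359 to 5.05 ± 0.128 RPKM (SD, n = 2; −0.86, limma adjusted p = 1.28e-06), Elk1 by −0.29 and Elk3 by −0.18. Srf itself was at 20.0 and 18.3 RPKM on average in DMSO and with T-5224 (−0.12, limma adjusted p = 0.112). The median log2 fold change of the list was −0.12 with SB431542 and −0.17 with T-5224, and the lower count with T-5224 was 2 without DMSO column 2 and without either T-5224 library.

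Transcripts with AU-rich elements known to be bound by ZFP36 proteins were listed beside Zfp36 and Zfp36l1, 23 genes in all. Several are immediate early genes themselves and stand in the wider list too, Ptgs2 and Plaur among them, so both lists count them. With SB431542, 5 of 16 tested were higher and none lower (8 and 0 at an unadjusted p under 0.05), with 2 up past 2-fold and a median of 0.15, where 10.2% of all genes were higher and 0.231% up. At a minimum of 5 RPKM 2 were higher. The chemokine genes Ccl20 and Ccl2 led, Ccl20 going from 3.64 ± 1.04 to 12.4 ± 2.65 RPKM (SD, n = 3; 1.65, limma adjusted p = 0.00260) and Ccl2 from 0.620 ± 0.101 to 1.94 ± 0.537 RPKM (1.11, limma adjusted p = 0.00502). Ccl2, under 1 RPKM in DMSO, could be tested only through the SB431542 libraries, and the counts and the median include it. Cyclin D1, Ccnd1, rose from 44.8 ± 2.48 to 89.7 ± 7.22 RPKM (0.99, limma adjusted p = 3.11e-04). Without DMSO replicate 1, 7 were higher and 1 lower.

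With T-5224, 14 of 17 tested were higher and 3 lower, with 13 up and 1 down past 2-fold and a median of 1.38, where 40.3% of all genes were higher, 39.4% lower, 10.4% up and 10.6% down. Of the 14, 4 were under 1 RPKM in DMSO, Il23a and Plaur among them, and could be tested only through the T-5224 libraries. The counts and the median include these 4. Ccl2, at 0.456 RPKM on average in DMSO and 0.112 with T-5224, was under the minimum and was not tested. The cytokine gene Il23a went from 0.0740 ± 0.0255 to 31.9 ± 1.30 RPKM (SD, n = 2; 5.82, limma adjusted p = 1.16e-12), and Plaur from 0.275 ± 0.0792 to 17.2 ± 0.780 RPKM (4.51, limma adjusted p = 1.83e-11). The urokinase gene Plau (−1.30), Notch1 (−0.89) and Ccnd1 (−0.75) fell. These changes stood beside the rise of Zfp36 and the fall of Zfp36l1 in the same libraries, and a relation between them was not tested.

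**Figure D4:**
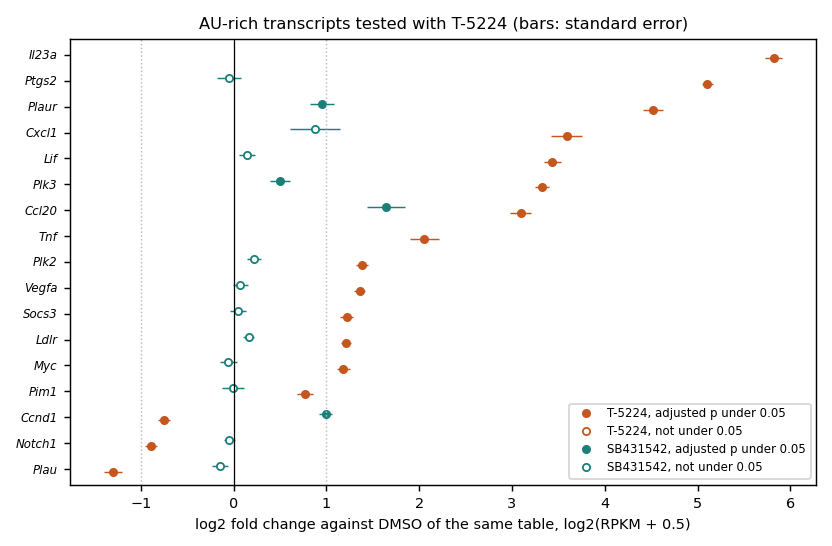
Log2 fold change, on the log2(RPKM + 0.5) scale, of the 17 listed AU-rich transcripts tested with T-5224, with the SB431542 value beside it where tested. Bars are standard errors, filled points have an adjusted p under 0.05 (limma), and dotted lines mark 2-fold. With T-5224, 14 points lie to the right of 0 and 3 (Ccnd1, Notch1 and Plau) to the left.

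Across the 10 libraries, each taken as log2(RPKM + 0.5) less the DMSO mean of its table, several of the members tested in both tables varied together. Ier2 and Ier3 had a Pearson r of 0.991, Egr1 and Ier3 of 0.909, and Egr1 and Btg2 of −0.980, while Egr1 and Ier5 had −0.193. The genes most like Egr1, of 10462 tested in both tables, were Sf3a2 (r = 0.990), Arhgdib (0.985) and Nifk (0.985). Their log2 fold changes were 0.46, 0.72 and 0.70 with T-5224 and 0.07, 0.12 and 0.17 with SB431542, values that the choice by likeness to Egr1 already used. The points share libraries and treatments and so describe the pattern with no test.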

How the data were processed

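RNA-seq libraries from ASZ001 cells were analysed in 2 experiments, with 10 libraries in all. Per the labels the authors used a stranded mRNA kit, aligned reads with TopHat to mm9 and quantified them with HOMER, and the deposited values are RPKM to 3 decimals for each gene and library, with no counts used here. All 10 columns of values were used. The DMSO libraries of T-5224 carry numbers 1 and 2 in the table but 4 and 5 in the labels, so they were mapped as a group. Rows whose name had become a date (22 and 23) were left out. Each inhibitor was fitted alone by limma (version 3.58.1, R version 4.3.3). The fit took log2(RPKM + 0.5) of genes with a mean of at least 1 RPKM (10842 and 10809; 6816 and 5910 genes were under it), let the prior variance follow the mean level and adjusted p by Benjamini and Hochberg, and the script was tested on simulated data. Higher and lower mean an adjusted p under 0.05, and up and down mean also past 2-fold. Fold changes on this scale understate those of low genes.

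The members, the gene lists and the tests were chosen with earlier results of these data known. Named were all members, up to 3 genes with the largest rise and 3 with the largest fall past the test in each list, family relatives, the 3 genes most like Egr1, and Gli1 and Pmepa1 as checks. Dusp1, Jund, Klf4 and Srf were named after their values were seen. Positions are from GENCODE for NCBIM37, the assembly of mm9, and promoters from RefSeq for GRCm38.p6. Library depth was read from RPKM of genes shorter than 250 bases, where 17 to 34 low values a library all lay within 0.05 of a whole read. The alternatives were pseudocounts of 0.1 and 1, no filter or a minimum of 5 RPKM, centring by the median or by quantile normalization, a variance prior with no trend, unadjusted p, the replicate number as a block, and each library left out in turn. Same-numbered SB431542 and DMSO libraries did not deviate together. ATAC-seq and ChIP-seq data were not analysed here.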

Additional observations from a re-analysis of the deposited data

Results flagged for a closer look

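Among the genes named by the rule, 4 were such that every library moved one way with SB431542 and every library the other way with T-5224, each against its own DMSO libraries, and the difference between the inhibitors was not tested. Of all genes tested, 23.9% lay wholly above and 21.3% wholly below DMSO with SB431542, and 45.1% and 44.5% with T-5224. The share of all genes with opposed directions was not worked out. Genes of the lists were named for passing these same tests, so the 4 are description only. Zfp36 had a log2 fold change of −0.217, which did not pass the test, with SB431542 and of 1.186 with T-5224. Ier5l, a relative of Ier5, had 0.434 and −1.588. Klf11, a relative of Klf6, had −0.632 and 0.488. Ccnd1, from the list of AU-rich transcripts, had 0.991 and −0.745.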

How the results depend on the processing

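With T-5224 the members higher and lower stayed within 1.5 times their counts in every alternative run that kept all libraries. The count of members down past 2-fold, 1 as reported, was 0 with a pseudocount of 1 and 2 with no filter, since Klf2 could then be tested. With each library left out in turn, Btg2 ran from −1.09 to −0.99 and so was not past 2-fold in every fit. Klf2 could be tested without T-5224 replicate 1 (−1.54) or replicate 2 (−1.51), each time with 1 T-5224 library left. With SB431542 the members higher, 3 as reported, were 0 to 4 and the members lower, 1 as reported, 1 to 2 when each library was left out, and 3 members were lower at an unadjusted p. Over all genes, those up with SB431542, 25 as reported, were 38 with a pseudocount of 0.1, 12 with a pseudocount of 1 and 10 at a minimum of 5 RPKM, where 41 were down in place of 63. At that minimum 742 genes were down with T-5224 in place of 1144. With no filter 2 relatives were higher with SB431542 in place of 4, and at an unadjusted p 7 relatives and 11 of the wider list. The causes of these shifts in counts were not tested.

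The sign turned for small values only. Ier5 with SB431542 ran from −0.16 (without DMSO replicate 1) to 0.11 with each library left out in turn, and was −0.03 without SB431542 replicate 1, and with T-5224 quantile normalization gave −0.014 for Klf6 and −0.015 for Ier5, none of them past the test. The replicate number as a block, which the correlations of same-numbered libraries (−0.148, 0.151 and −0.095) do not show to pair the samples, left 3 members higher and 1 lower with SB431542, with 25 genes up and 71 down. Under it Mkl1 with SB431542 missed the test (limma adjusted p = 0.0621), which left 0 of the SRF list lower, and so did Klf15 (0.0775). The block was not fitted for T-5224, whose DMSO and treated libraries share no numbers in the labels. Few reads stood behind Klf2 with T-5224.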
